A study of Mus musculus with 12 samples.

Results

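The Sin3 histone deacetylase complex is described here through 10 genes, out of 21839 in the deposited count table, in 12 libraries of sorted mouse CD4 T cells. The genes are Sap130, Suds3, Sin3a, Sin3b, Hdac1, Hdac2, Sap18, Sap30, Rbbp4 and Rbbp7, each found by its symbol in 1 row of the table. The set was chosen by measured values of these libraries, because the RNA level of Sap130 was lower and Suds3 higher in the CD25 High cells of TG mice than in those of WT mice. Those differences are therefore given as a description, without a test.

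All mice were C57BL/6 and carried loxP-flanked Atg5 alleles (Atg5 flox/flox). TG mice were also CD11c Cre +/-, so that Cre, driven by the CD11c promoter, removes Atg5 mainly in dendritic cells, and their WT littermates were CD11c Cre -/-. CD4+ CD62L+ cells from the spleen and from lymph nodes (brachial, cervical, inguinal) were sorted as CD25 High or CD25 Low and are labelled regulatory T cells. The groups TG CD25 High, WT CD25 High, TG CD25 Low and WT CD25 Low hold 3 libraries each, numbered 1 to 3. Ages, sexes and the pooling of animals are not stated in the sources used here, and whether the replicates are separate animals is not said either, so p-values measure the spread between these samples, which may be technical. T cells are not the main target of the Cre, so Atg5 RNA in them does not check the deletion in dendritic cells. It stood at 33.9 to 41.5 CPM (counts scaled to the library total) in TG CD25 High and 32.0 to 35.7 in WT CD25 High, and at 36.5 to 41.3 in TG CD25 Low and 36.4 to 37.5 in WT CD25 Low.

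Sin3 complexes remove acetyl groups from histones and so help to keep genes silent. The scaffolds Sin3a and Sin3b bind no DNA themselves and are brought to genes by transcription factors, among them the Mxd proteins that pair with Max and compete with Myc. The scaffold holds the deacetylases Hdac1 and Hdac2 and the histone chaperones Rbbp4 and Rbbp7. It also holds other subunits, such as Suds3, Sap18, Sap30 and Sap130, that assemble the complex or keep it active. In T cells, Hdac1 and Hdac2 are needed for normal development, and Foxp3, the defining factor of regulatory T cells, works in part through repressor complexes.

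Total counts per library ran from 6767828 in TG CD25 High replicate 2, the shallowest, to 23942479. Levels are CPM scaled by edgeR's trimmed mean of M-values (TMM), whose factors ran from 0.966 to 1.03. All 10 genes passed the filter on low counts among 11766 genes. The libraries numbered 1 stood apart in every group. In them the summed level of 6 cell-cycle markers was 136 to 284 CPM, against 25.9 to 37.6 CPM in those numbered 2 and 8.27 to 13.1 CPM in those numbered 3, and the Y-linked Ddx3y was at 39.5 to 51.0 CPM, against 96.2 to 207 CPM in the other 8. The regulatory T cell markers were present in all libraries: Foxp3 at 983 to 1662 CPM and the CD25 gene Il2ra at 481 to 1309 CPM. Dendritic and myeloid markers summed to 1.96 to 3.71 CPM in the libraries numbered 2 and 3 and to 3.43 to 96.3 CPM in those numbered 1, where their part in the results below was not tested.

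The subunits differed widely in RNA level. Per kilobase of exon, averaged over the 12 libraries, Rbbp7 was highest at 83.0 ± 9.8 CPM per kb (SD, n = 12), followed by Rbbp4 at 40.4 ± 2.7. Hdac2 (31.2 ± 3.1) and Sin3a (30.0 ± 2.2) lay within each other's spread. Sin3b (23.2 ± 1.2) and Hdac1 (19.4 ± 2.6) followed, with ranges over libraries of 21.4 to 24.8 and 16.2 to 24.3 that overlapped. Suds3 (9.40 ± 1.02) came next, then Sap130 (6.44 ± 1.26) and Sap18 (6.12 ± 0.60), which did not differ beyond their spread, and Sap30 was lowest at 3.78 ± 0.86. Every scaffold, enzyme and chaperone thus had a higher RNA level per length than any of the Sin3-associated subunits. Length here is the union of all annotated exons of a gene, and the split depends on it. Without division by length Suds3 averaged 106 CPM, above Hdac1 at 66.8 CPM. Sap30 rested on 38 to 117 counts per library and Sap130 on 215 to 1513.

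Sap130, among the largest subunits, binds Sin3a and helps to assemble the complex, and outside the complex it is known as a nuclear protein that dying cells release and that the receptor Mincle recognises. The gene lies on chromosome 18 at 31634371 to 31723061 (plus strand, GRCm38, GENCODE vM21), and no other annotated gene shares its exons. In TG CD25 High its level was 42.7, 32.9 and 50.6 CPM, against 58.8, 63.8 and 62.7 CPM in WT CD25 High (replicates 1, 2 and 3). All 3 TG values lay below all 3 WT values and below all 6 CD25 Low values, and the lowest came from the shallow library. The fitted log2 difference, TG minus WT, was -0.54 (SE 0.14), a fold of 0.686. It was -0.40 without TG CD25 High replicate 2 and -0.58 without the libraries numbered 1.

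In CD25 Low, Sap130 was at 68.5, 67.9 and 66.9 CPM in TG and at 59.9, 56.5 and 71.3 CPM in WT. These groups overlapped, with a log2 difference of 0.11 (95% interval -0.15 to 0.38; edgeR quasi-likelihood test, adjusted p = 1.00). Within TG mice, Sap130 was lower in CD25 High than in CD25 Low in 3 of 3 same-numbered pairs, with a log2 difference of -0.68 (SE 0.14, a description because the TG CD25 High libraries chose the gene). Within WT mice the same difference was -0.02 (SE 0.14).

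Suds3, the mouse homologue of yeast Sds3, is needed for the deacetylase activity of the complex and supports its dimerisation. It lies on chromosome 5 at 117091680 to 117116113 (minus strand). Its level was 123, 131 and 112 CPM in TG CD25 High and 100, 94.2 and 104 CPM in WT CD25 High. All 3 TG values were above all 9 others except WT CD25 Low replicate 2, which at 113 CPM was above TG CD25 High replicate 3. The log2 difference, TG minus WT in CD25 High, was 0.29 (SE 0.09), a 1.23-fold higher level, and it was 0.24 without TG CD25 High replicate 2. In CD25 Low, Suds3 was at 98.4, 97.1 and 104 CPM in TG and at 105, 113 and 95.0 CPM in WT, with overlapping groups and a log2 difference of -0.06 (95% interval -0.24 to 0.11; edgeR quasi-likelihood test, adjusted p = 1.00). Between the gates the log2 difference, High minus Low, was 0.29 (SE 0.09) in TG and -0.07 (SE 0.09) in WT.

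**Figure D1:**
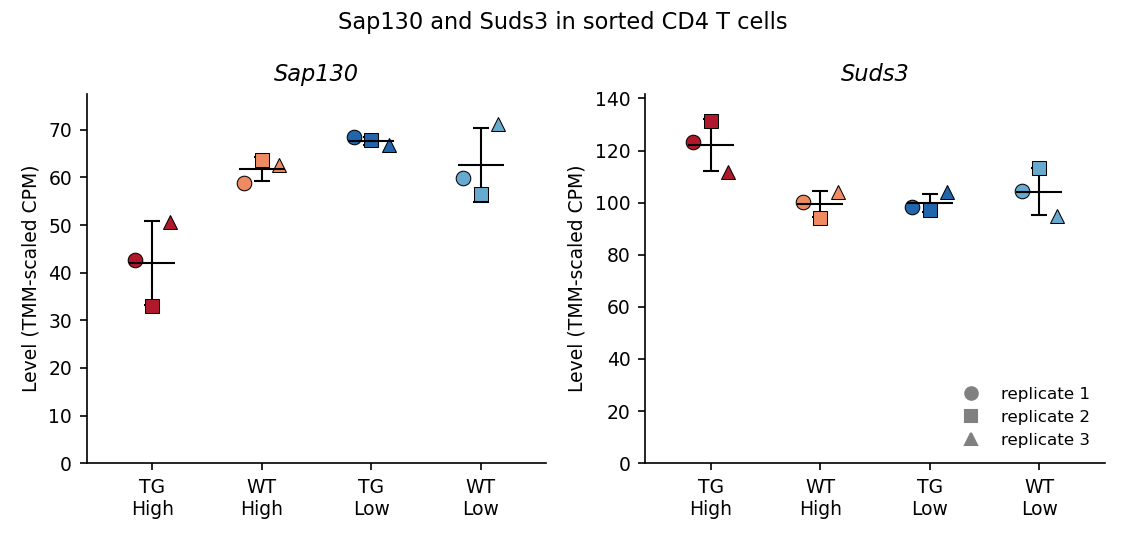
Level of Sap130 (left panel) and Suds3 (right panel) in each of the 12 libraries, in TMM-scaled CPM on axes from 0. Symbols mark the replicate number, bars the mean and SD of 3 libraries. In TG CD25 High, Sap130 was at 32.9 to 50.6 CPM, below every other library, and Suds3 at 112 to 131 CPM.

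Across all genes, groups without overlap between TG and WT in CD25 High were found for 2.29% of 11766 genes in the lower direction, Sap130's, and for 1.98% in the higher direction, Suds3's. No gene passed an adjusted p of 0.05 in this comparison by edgeR (percent called 0; 99 genes had an unadjusted p under 0.05), and DESeq2 with the replicate number as a block called 7. Since Sap130 and Suds3 were chosen for this pattern, nothing further is read from those shares.

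The count of Suds3 over that of Sap130 within a library needs no scaling between libraries. It was 2.89, 3.99 and 2.21 in TG CD25 High, against 1.70, 1.48 and 1.66 in WT CD25 High. In TG CD25 Low it was 1.44, 1.43 and 1.55, against 1.74, 2.01 and 1.33 in WT CD25 Low. The ratio averaged 3.03 ± 0.90 in TG CD25 High and 1.61 ± 0.12 in WT CD25 High (SD, n = 3 each), and the 3 TG CD25 High libraries held the highest values of the 12.

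In CD25 Low, whose libraries did not choose them, Sap130 and Suds3 also ran opposite to each other. The same-numbered pairs gave a TG minus WT log2 difference of 0.19, 0.27 and -0.09 for Sap130 and of -0.09, -0.22 and 0.13 for Suds3, opposite in sign in 3 of 3 pairs. Over all 4 comparisons of matched libraries the signs were opposite in 11 of 12 pairs, and the exception was the WT gate pair numbered 1, at -0.03 for Sap130 and -0.06 for Suds3. These pairs share libraries and are not independent, and 9 of them hold a CD25 High library, whose values chose both genes. For the TG minus WT pairs in CD25 High the opposite signs follow from that choice. The share of other gene pairs with opposite signs was not counted, so nothing further is read from these counts.

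Over the 6 CD25 Low libraries the 2 levels, on the log2 scale, had a Pearson r of -0.928 (exact permutation test, two-sided, p = 0.00278, adjusted over both coefficients p = 0.00556). The Spearman rho was -0.943 (exact permutation p = 0.0167, adjusted p = 0.0167). The relation of these 2 genes was the only 1 across libraries given a test here. It was tested after the opposite pattern had been seen over the 12 libraries, which include these 6. Over the 12, r was -0.935, the most inverse of all pairs among the members. The adjustment does not cover that choice, so the p-values of this pair are a description and no independent test. Libraries of 1 number are also paired, which the permutations ignore. Without the 2 libraries farthest from the median of Sap130, both from WT, r was -0.831 over the other 4. Without TMM scaling, r was -0.884 (exact permutation p = 0.0111, adjusted p = 0.0222), while rho was -0.829 (exact permutation p = 0.0583, adjusted p = 0.0583).

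Set against other genes, 12 of 8317 genes, Suds3 among them, had an r with Sap130 at or below that of Suds3 in CD25 Low, and the lowest was Ubr7 at -0.977. Over the 9 libraries other than TG CD25 High, of which the WT CD25 High ones also had a part in the choice, r between Sap130 and Suds3 was -0.708, the 61st most inverse of the same 8317 genes.

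**Figure D2:**
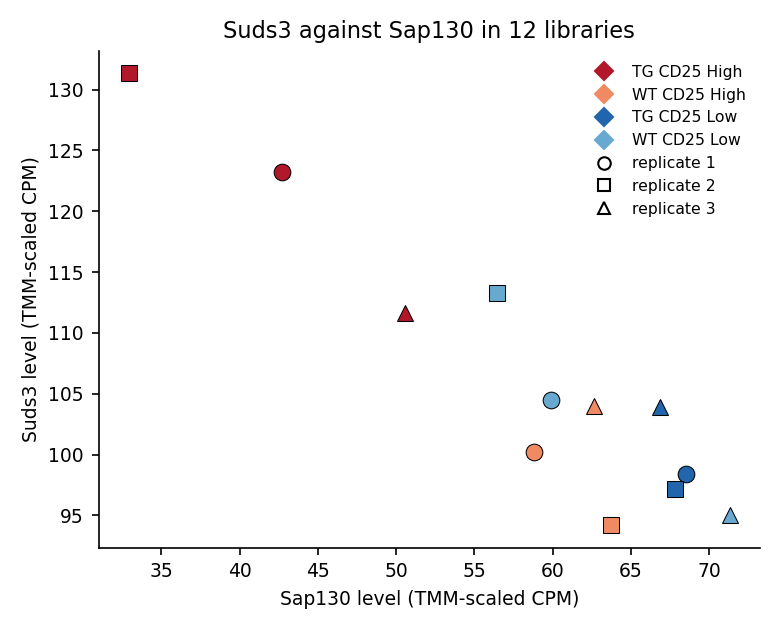
Level of Suds3 against that of Sap130 in 12 libraries, both in TMM-scaled CPM, with axes that do not start at 0. Colours mark the group and symbols the replicate number. The 3 TG CD25 High libraries lie at upper left. The 6 CD25 Low libraries also run from upper left to lower right (r = -0.928 for the log2 levels).

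The 300 bases around the RefSeq start of Suds3, 250 before and 50 after it, are printed because Suds3 is the member of the pair whose start region is in the RefSeq table used here. They lie at chr5:117115944-117116243 on the minus strand (GRCm38.p6), and capitals mark CCGGAAGT, a word bound by ETS factors.
Suds3: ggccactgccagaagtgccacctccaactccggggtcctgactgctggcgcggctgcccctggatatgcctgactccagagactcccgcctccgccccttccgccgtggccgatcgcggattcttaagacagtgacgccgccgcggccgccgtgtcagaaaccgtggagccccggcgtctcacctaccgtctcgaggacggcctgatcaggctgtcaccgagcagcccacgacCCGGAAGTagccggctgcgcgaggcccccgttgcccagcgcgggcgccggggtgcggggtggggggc

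The word begins 17 bases before the start, on the gene's own strand. Searched on both strands, it occurs in 3.89% of the 32851 start regions of this table and in 1 of the 8 members' regions that the table holds. The match describes these letters and is no evidence of binding.

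The other 8 subunits differed little between TG and WT in CD25 High, and all 8 had overlapping groups. The scaffold Sin3a was at 155, 172 and 163 CPM in TG and at 179, 166 and 179 CPM in WT, a log2 difference of -0.10 (SE 0.09). Sin3b was at 181, 158 and 171 CPM in TG and at 157, 163 and 174 CPM in WT, a log2 difference of 0.05 (SE 0.08). The deacetylases stood at 0.03 (SE 0.10, Hdac1) and 0.10 (SE 0.12, Hdac2), the chaperones at 0.07 (SE 0.10, Rbbp4) and 0.08 (SE 0.14, Rbbp7). Sap18, which also belongs to a splicing-associated complex, stood at -0.05 (SE 0.14), and Sap30, which bridges Sin3 and other corepressors, at 0.11 (SE 0.31). These 8 values stand beside the same contrast that chose the set and carry no test.

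In CD25 Low, a gate that played no part in the choice, none of the 10 genes passed the test between TG and WT, nor did any of the 11766 genes (percent called 0; 48 genes had an unadjusted p under 0.05; DESeq2 with the replicate block called 2). The median log2 difference of the 10 was 0.02, against 0.01 over all genes tested. The differences ran from -0.07 for Hdac2 (95% interval -0.30 to 0.16) to 0.13 for Sap30 (-0.48 to 0.74). The intervals of the 9 genes other than Sap30 lay within 0.38 log2 units of 0. For these a larger difference between TG and WT falls outside the interval, while Sap30, with the lowest counts, allows a wider range. The intervals take 1.96 SE, which is narrower than the quasi-likelihood test implies, so this bound is approximate.

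**Figure D3:**
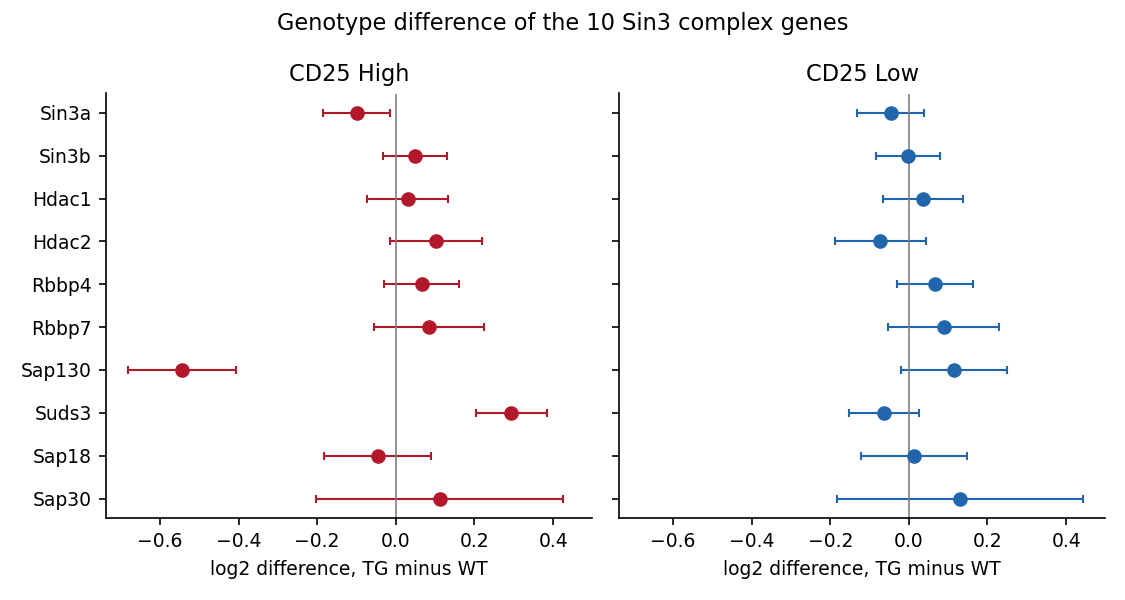
Log2 difference TG minus WT for the 10 genes in CD25 High (left) and CD25 Low (right), with bars of 1 SE from the edgeR fit. In CD25 High, Sap130 stood at -0.54 and Suds3 at 0.29, the values that chose the set, and the other 8 between -0.10 and 0.11. In CD25 Low all 10 stood between -0.07 and 0.13.

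Between the gates, Hdac1 stood out among the subunits whose test is independent of the choice, without passing it. Hdac1, one of the enzymes that remove the acetyl groups, was at 74.2, 83.9 and 65.9 CPM in TG CD25 High, against 59.4, 66.2 and 55.8 CPM in TG CD25 Low. In WT it was at 76.6, 73.8 and 68.4 CPM in CD25 High, against 56.1, 60.9 and 59.8 CPM in CD25 Low. The value was higher in CD25 High in 6 of 6 same-numbered pairs, and the groups overlapped in TG but not in WT, where 4.49% of all genes tested were higher without overlap. Of all genes, 7.02% were higher in CD25 High in all 6 pairs.

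The log2 difference of Hdac1, High minus Low, was 0.30 in TG (SE 0.10, adjusted p = 0.674) and 0.31 in WT (SE 0.10, adjusted p = 0.912) by edgeR's quasi-likelihood test. With the replicate number as a block the adjusted p was 0.105 in TG and 0.104 in WT by edgeR, and 0.0550 in TG and 0.0525 in WT by DESeq2, so no call was made in any of these fits. Without that block 0.0085% of genes were called between the gates in TG and 0.051% in WT, and with it 1.68% in TG and 1.63% in WT.

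Sin3a was also higher in CD25 High in 6 of 6 pairs. Its log2 difference was 0.10 in TG (SE 0.09, adjusted p = 0.999) and 0.16 in WT (SE 0.09, adjusted p = 1.00) by edgeR without the block. That fit leaves out the pairing by number. Sin3a was not called in it, nor by edgeR with the block. Sin3b had a log2 difference of -0.03 in TG and -0.08 in WT and was higher in CD25 High in 2 of 6 pairs. Hdac2, the paralogue of Hdac1, had a log2 difference of 0.14 in TG and -0.03 in WT and was higher in 3 of 6 pairs. Rbbp4, Rbbp7, Sap18 and Sap30 lay between -0.03 and 0.09 in both genotypes, and none passed.

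The balance between paralogues was compared within libraries, as the log2 ratio of their counts over the 6 High and Low pairs, by an exact sign-flip permutation test, two-sided, whose smallest possible p is 0.03125. The ratio of Sin3a to Sin3b was higher in CD25 High in 6 of 6 pairs, by 0.19 ± 0.09 (SD; exact p = 0.03125, the smallest the test can give, and 0.0938 adjusted over the 3 ratios). The ratio of Hdac1 to Hdac2 was higher in 5 of 6 pairs, by 0.25 ± 0.20 (SD; exact p = 0.0625, adjusted 0.0938). For Rbbp4 to Rbbp7 the difference was -0.08 ± 0.11 (SD; exact p = 0.219, adjusted 0.219). None passed 0.05 after adjustment over the 3 ratios, which a single ratio at the smallest possible p could not do by itself.

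Mxd1, a Max partner that recruits Sin3 to DNA, was called between the gates when the replicate number was a block. It was at 171, 162 and 207 CPM in TG CD25 High, against 108, 126 and 145 CPM in TG CD25 Low. In WT it was at 196, 160 and 198 CPM in CD25 High, against 124, 112 and 124 CPM in CD25 Low. The groups did not overlap in either genotype, as for 4.22% of genes in TG and 4.49% in WT in this direction, and the log2 difference was 0.51 in TG (SE 0.09, adjusted p = 0.00933) and 0.62 in WT (SE 0.09, adjusted p = 0.00158) by edgeR with the block.

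Without the block the adjusted p of Mxd1 was 0.430 in TG and 0.299 in WT. In TG the blocked call was lost without TG CD25 High replicate 3 (adjusted p = 0.0560), without TG CD25 Low replicate 1 (adjusted p = 0.0865) and without all libraries numbered 1 (adjusted p = 0.137), by edgeR. In WT it was kept when each library was left out in turn, with an adjusted p of 0.0273 without the libraries numbered 1. Mxd1 was the only 1 of the 16 Sin3 recruiting factors tested to be called between the gates in either edgeR fit. None of the 16 was called between TG and WT by edgeR.

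**Figure D4:**
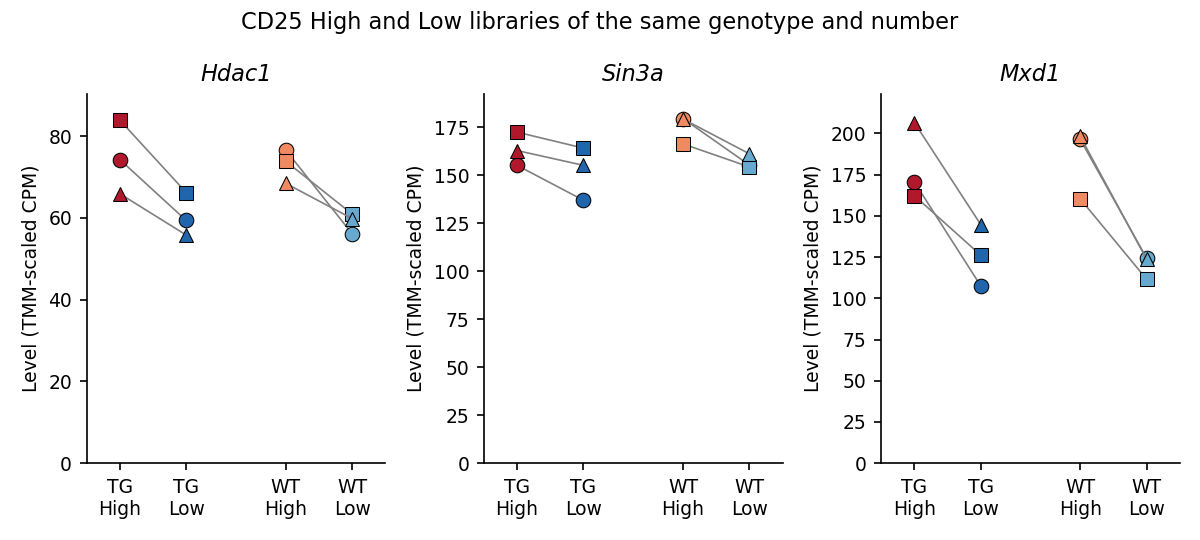
Levels of Hdac1, Sin3a and Mxd1 in TMM-scaled CPM, on axes from 0, with lines joining the CD25 High and CD25 Low libraries of the same genotype and number. Each of the 6 lines falls to the right for all 3 genes. Mxd1 was called in both genotypes with the replicate block, and Hdac1 and Sin3a were not.

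Related genes showed the same lack of calls by genotype. In 8 lists 102 related genes were tested. They were 16 other Sin3 subunits, 16 recruiting factors, 11 of the NuRD complex and 11 of CoREST and MiDAC. The rest were 6 of the NCoR complex, 15 other deacetylases and sirtuins, 11 acetyltransferases and 16 of other complexes that hold Rbbp4 or Rbbp7. None of the 102 was called by edgeR between TG and WT in either gate, with or without the block. In CD25 High the list medians of the log2 difference ran from -0.13 (other deacetylases and sirtuins, positive in 2 of 15) to 0.01 (recruiting factors), against 0.01 over all genes. In CD25 Low they ran from -0.08 to 0.08. Among the other Sin3 subunits, those with the smallest p in CD25 High were Morf4l1 at 0.15 (SE 0.10) and the demethylase Kdm5b at -0.15 (SE 0.10), neither called.

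Between the gates, the same 8 lists held no call by edgeR apart from Mxd1, 1 of 102 genes tested, beside 1.68% of all genes in TG and 1.63% in WT in the blocked fit that made it. The median log2 difference of the other Sin3 subunits was 0.06 in TG and 0.01 in WT, and that of the recruiting factors was 0.18 in TG and 0.09 in WT, against -0.0011 in TG and -0.0010 in WT over all genes. Kdm5b had the smallest p among the other Sin3 subunits in both genotypes, with a log2 difference of 0.16 in TG and 0.20 in WT (SE 0.10 each), not called. Max, the partner of the Mxd proteins and of Myc, had a log2 difference of 0.82 in TG (SE 0.32) and 0.51 in WT (SE 0.31), not called. The uncalled list genes with the smallest adjusted p in the blocked fit were Hdac4 and Crebbp, both in TG. The class IIa deacetylase Hdac4 averaged 23.8 ± 4.0 CPM in TG CD25 High and 34.1 ± 4.4 CPM in TG CD25 Low (SD, n = 3 each), a log2 difference of -0.51 (SE 0.14), with an adjusted p of 0.526 by edgeR and 0.0568 with the block. The acetyltransferase Crebbp averaged 139 ± 9.9 CPM in TG CD25 High and 177 ± 18 CPM in TG CD25 Low (SD, n = 3 each), a log2 difference of -0.35 (SE 0.14), with an adjusted p of 0.873 by edgeR and 0.0582 with the block.

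More genes were called by replicate number than by genotype or gate. The power was not equal, since the number comparison sets 4 libraries against 8 in the blocked fit. Each of the other comparisons sets 3 libraries against 3. Between the 4 libraries numbered 1 and the 8 numbered 2 and 3, with the groups held constant, 27.5% of genes were called by edgeR (16.8% higher and 10.7% lower), and 3 of the 10 subunits were among them, a share close to that of all genes. This comparison did not choose the members. Rbbp7 and Sap30 were higher and Sap18 lower in the libraries numbered 1.

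Rbbp7, a chaperone that presents histones to Sin3, NuRD, Polycomb and chromatin assembly complexes, was at 271, 279, 275 and 253 CPM in the libraries numbered 1, in the order TG CD25 High, WT CD25 High, TG CD25 Low and WT CD25 Low. It was at 198 to 270 CPM in those numbered 2 and at 221 to 251 CPM in those numbered 3. The sets overlapped only in WT CD25 Low, whose library numbered 1 lay below TG CD25 High replicate 2. The log2 difference was 0.25 (SE 0.07, adjusted p = 0.0145 by edgeR), and the call was lost without WT CD25 High replicate 1 (adjusted p = 0.0710), TG CD25 Low replicate 1 (0.0701) or WT CD25 Low replicate 1 (0.0528). Rbbp7 shares 174 of its 2909 exon bases with Txlng on the other strand, and these libraries keep no strand.

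Sap30 was at 5.13 to 5.99 CPM in the libraries numbered 1, against 3.22 to 5.82 CPM in those numbered 2 and 3.05 to 4.14 CPM in those numbered 3. Its log2 difference was 0.48 (SE 0.17, adjusted p = 0.0467 by edgeR), and DESeq2 gave an adjusted p of 0.0509. Leaving out each library in turn ended the call in 9 of 12 cases, with adjusted p up to 0.180. Sap18 was at 28.1 to 32.4 CPM in the libraries numbered 1, against 33.8 to 39.3 CPM in those numbered 2 and 32.9 to 35.1 CPM in those numbered 3. Its log2 difference was -0.23 (SE 0.08, adjusted p = 0.0363 by edgeR), and 6 of 12 such fits ended the call, with adjusted p up to 0.176. Its near copy Sap18b held 0.612 to 2.77 CPM, and the counting may have split reads between them.

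Markers of other cells moved with the replicate number in the same libraries. In the libraries numbered 1, 6 of 6 cell-cycle markers, 6 of 6 B cell markers and 6 of 7 CD8 T or NK cell markers were called higher. Dendritic and myeloid markers were called higher in 2 of the 3 that could be tested. Of the 8 CD4 regulatory T cell markers, 3 were called higher and 2 lower. Over all genes, 16.8% were called higher and 10.7% lower. The summed B cell markers, mostly Ighm, were at 684 to 1045 CPM in the libraries numbered 1, against 512 to 586 CPM in those numbered 2 and 356 to 519 CPM in those numbered 3. The part of these cells in the levels of Rbbp7, Sap30 and Sap18 was not tested, and in bulk RNA more cells of a type and more RNA per cell cannot be told apart.

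Rbbp7 and Sap30 are shown by sequence because they were higher together in these libraries. Their start regions in RefSeq, cut as for Suds3, lie at chrX:162760122-162760421 on the plus strand and at chr8:57487811-57488110 on the minus strand (GRCm38.p6). Capitals mark CCAAT, the word bound by NF-Y, on either strand.
Rbbp7: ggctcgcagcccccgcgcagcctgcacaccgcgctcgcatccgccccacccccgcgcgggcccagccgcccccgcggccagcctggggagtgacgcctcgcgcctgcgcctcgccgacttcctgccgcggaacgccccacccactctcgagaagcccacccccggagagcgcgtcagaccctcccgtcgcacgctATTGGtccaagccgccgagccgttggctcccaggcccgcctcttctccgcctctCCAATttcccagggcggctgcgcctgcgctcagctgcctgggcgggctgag
Sap30: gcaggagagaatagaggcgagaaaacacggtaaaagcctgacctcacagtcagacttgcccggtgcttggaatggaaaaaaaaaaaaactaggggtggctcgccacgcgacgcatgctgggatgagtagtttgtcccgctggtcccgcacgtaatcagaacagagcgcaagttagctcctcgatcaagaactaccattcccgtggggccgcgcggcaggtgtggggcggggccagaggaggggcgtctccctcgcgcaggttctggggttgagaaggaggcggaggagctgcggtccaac

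The Rbbp7 region held CCAAT at 55 bases before the start on the other strand and at 1 base before it on its own strand, and the Sap30 region held none. CCAAT occurs in 37.4% of the 32851 start regions and in 3 of 8 members' regions (Rbbp4, Rbbp7 and Sin3a). TTTGGCGC and TTTCCCGC, words bound by E2F, occur in 0.514% and 1.07% of all start regions and in none of the 8. CACGTG, bound by Myc and Max, occurs in 7.15% and, among the 8, in that of Rbbp4. No match says only that these letters are not in this window.

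Of the 102 related genes tested, 27 were called by replicate number (26.5%, close to the 27.5% of all genes), and 13 of these kept their call when each library was left out in turn. Of the 16 tested members of other complexes that hold Rbbp4 or Rbbp7, 5 were called higher in the libraries numbered 1 (16.8% of all genes were) and none lower. They were the assembly factor Chaf1a (log2 difference 2.65, SE 0.18, adjusted p by edgeR 2.96e-08), its partner Chaf1b (0.42), the methyltransferase Ezh2 (0.80) and its cofactors Phf19 (1.21) and Aebp2 (0.26). Aebp2 was called in 6 of the 12 fits that left out a library, and the other 4 in all 12. The Max partner Mxd3 was at 5.13 to 7.69 CPM in the libraries numbered 1, against 0.196 to 1.26 CPM in the other 8, a log2 difference of 3.30 (SE 0.22).

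The other Sin3 subunits showed 3 lower and no higher calls of 16, beside 10.7% lower over all genes: Sap30l, the paralogue of Sap30, at -0.50 (SE 0.11, adjusted p by edgeR 0.00287), Arid4a at -0.20 and Sap25 at -0.35. Sap30l was called in all 12 fits that left out a library, Arid4a and Sap25 in 5 of 12 each, with adjusted p by edgeR up to 0.170 (Arid4a, without WT CD25 Low replicate 1) and 0.196 (Sap25, without TG CD25 Low replicate 1). Sap30 and Sap30l thus had log2 differences of opposite sign in the libraries numbered 1, though the call of Sap30 was lost in 9 of the 12 fits. Among the recruiting factors Mxd4 (0.39) and Klf10 (0.26) were higher as well, and Klf11 (-0.46), Myc (-0.30) and Mga (-0.25) lower. Hdac9 was higher (1.17) and Hdac10 (-0.39) and Sirt7 (-0.25) lower among 15 deacetylases and sirtuins. In the remaining lists Mta1 (0.34), Zmym3 (0.25) and the acetyltransferase Hat1 (0.37) were higher, and Cdk2ap1 (-0.71), Kat2b (-0.33), Gps2 (-0.30), Zmym2 (-0.28) and Kat2a (-0.19) were among those lower. Of the genes in this paragraph other than Sap30l, the call was made in all 12 such fits for Mxd4, Hdac9, Hdac10, Hat1, Kat2b and Zmym2.

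**Figure D5:**
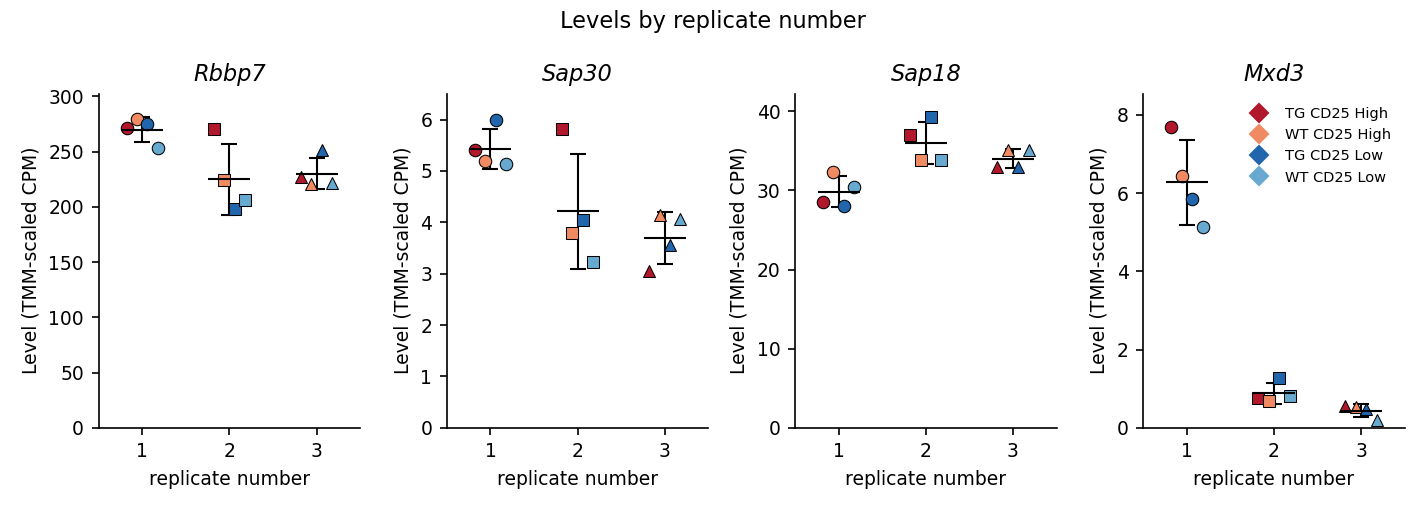
Levels of Rbbp7, Sap30, Sap18 and the Sin3 recruiting factor Mxd3 by replicate number, in TMM-scaled CPM on axes from 0. Colours mark the group, bars the mean and SD of 4 libraries. Mxd3 was at 5.13 to 7.69 CPM in the libraries numbered 1 and at 0.196 to 1.26 CPM in the other 8.

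Sap130 and Suds3 themselves did not pass the test by replicate number. The log2 difference, number 1 minus the others, was -0.04 for Sap130 (95% interval -0.20 to 0.12; edgeR adjusted p = 0.772) and 0.0045 for Suds3 (-0.12 to 0.13; edgeR adjusted p = 0.970). Relative to its mean, Sap130 varied more over the 12 libraries (CV 19.6%) and Suds3 less (10.8%) than the median tested gene (13.6%), and Sin3b varied least of the 10. These libraries include the CD25 High ones whose difference chose Sap130 and Suds3, so their CVs are a description.

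The genes whose log2 level over the 12 libraries was most like that of Sap130, among 8318 genes that averaged 10 CPM or more, were the DNA helicase Helb (Pearson r 0.900), Zkscan6 (0.862), Eif4a1 (0.838), Aarsd1 (0.837) and the class IIa deacetylase Hdac4 (0.830). For Suds3 they were Nrd1 (0.821), Zdhhc5 (0.817), Sf3a3 (0.807), Polr1b (0.774) and Nupl1 (0.763). These are descriptions over libraries that share depth and replicate number, and they include the libraries that chose Sap130 and Suds3. Helb was at 39.6 ± 4.6 CPM in TG CD25 High and 51.7 ± 6.8 CPM in WT CD25 High (SD, n = 3 each). By rank correlation only 1 of the 5 genes nearest to Sap130 and 1 of the 5 nearest to Suds3 stayed in the list, and after the mean of each replicate number was subtracted 2 and 0 did.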

How the data were processed

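The deposited table holds whole-number counts of reads per gene for 12 libraries. Per the labels, 10 ng of total RNA per library was amplified with the SMARTer Ultra Low kit and prepared with Nextera XT, a chemistry that keeps no strand. The submitters' processing notes name CASAVA 1.8.2, STAR 2.4, featureCounts 1.4.6 and GRCm38, and the settings used were not found in these sources. Genes were matched by Ensembl identifier to GENCODE vM21.

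Groups were taken from the titles. Counts were scaled by TMM, filtered with filterByExpr (99.96% of counts kept) and fitted with edgeR 4.0.16 (robust quasi-likelihood, R 4.3.3) over all 12 libraries and 4 groups, with Benjamini-Hochberg adjustment over the 11766 genes tested and a threshold of 0.05. Scripts were tested on simulated counts. Intervals are 1.96 SE, a normal approximation that is narrower than the quasi-likelihood test implies. Counting error of PCR reads without molecular identifiers is only part of these intervals. Exact permutation tests of 3 against 3 libraries cannot go below p = 0.1 and were not used for single genes.

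The labels number the replicates 1 to 3 in every group. Deviations from the group mean correlated at 0.340 to 0.830 between same-numbered libraries of different groups (18 pairs) and at -0.688 to 0.197 between differently numbered ones (36 pairs), so the numbers pair the samples, as these data show and not the labels. Results of a blocked fit on that number stand beside those whose call it changes.

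Alternatives were DESeq2 1.42.0 and its size factors, no filter, the block, the libraries numbered 1 left out and each library left out in turn. Leaving libraries out of the blocked fit and of the fits for list genes, DESeq2 with the block, and the correlation without TMM scaling were added after seeing the data. The members and the gene lists were chosen with earlier results of these data known. All 10 members are named; a list gene is named where called in a fit without or with the block, or among the 2 smallest p of its list. Some genes that meet this rule are not reported here. Of 104 list positions 103 were found in the table (Mideas under an older symbol) and 102 were tested. Likeness and the Pearson r of Sap130 and Suds3 used log2 CPM. Exon overlaps with other genes were found for Rbbp4, Rbbp7, Sap18 and Sin3a.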

Additional observations from a re-analysis of the deposited data

How the results depend on the processing

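No gene was called between TG and WT in CD25 High when each library was left out in turn, with or without the block, and DESeq2 with the block called 7; in CD25 Low, DESeq2 with the block called 2 and leaving out libraries from the blocked fit gave 0 to 2. Between the gates in TG, 1 gene was called, 198 with the replicate block, 3 without the filter, 58 by DESeq2, 362 by DESeq2 with the block, 0 to 3 when libraries were left out and 39 to 235 when they were left out of the blocked fit. In WT, 6 genes were called, 192 with the replicate block, 44 by DESeq2, 281 by DESeq2 with the block, 0 to 7 when libraries were left out and 49 to 247 when they were left out of the blocked fit. The lowest of the blocked counts came without the 4 libraries numbered 1, where fewer samples remain. By replicate number, 3239 genes were called, and 2081 to 3958 when libraries were left out. The cause of the other changes was not tested.

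Log2 differences near 0 changed sign when libraries were left out, in comparisons where the gene had no call. For TG minus WT in CD25 Low the ranges were -0.10 to 0.025 (Sin3a), -0.050 to 0.038 (Sin3b), -0.032 to 0.090 (Hdac1), -0.015 to 0.21 (Rbbp7), -0.13 to 0.0062 (Suds3), -0.12 to 0.13 (Sap18) and -0.12 to 0.31 (Sap30), and -0.13 to 0.0094 for Suds3 with the replicate block. For CD25 High minus Low in TG they were -0.074 to 0.020 (Sin3b), -0.0058 to 0.24 (Hdac2), -0.056 to 0.060 (Rbbp4), -0.045 to 0.19 (Rbbp7), -0.15 to 0.095 (Sap18) and -0.10 to 0.31 (Sap30), and in WT -0.095 to 0.015 (Hdac2), -0.066 to 0.070 (Rbbp4), -0.030 to 0.17 (Rbbp7), -0.031 to 0.071 (Sap18) and -0.068 to 0.26 (Sap30). By replicate number they were -0.026 to 0.051 (Sin3b), -0.049 to 0.025 (Hdac1), -0.089 to 0.00032 (Sap130) and -0.024 to 0.028 (Suds3), and Suds3 stood at -0.0014 without the filter. Among the differences given without a test, those that changed sign were, for TG minus WT in CD25 High, -0.031 to 0.097 (Sin3b), -0.057 to 0.11 (Hdac1), -0.044 to 0.20 (Hdac2), -0.14 to 0.047 (Sap18) and -0.049 to 0.35 (Sap30), and, for CD25 High minus Low in WT, -0.085 to 0.086 (Sap130), with -0.11 to 0.054 (Sap130) and -0.13 to 0.0049 (Suds3) in the blocked fit. The differences of Sap130 and Suds3 between TG and WT in CD25 High chose both genes. When libraries were left out, these differences stood at -0.70 to -0.40 for Sap130 and 0.24 to 0.35 for Suds3. The groups did not overlap, so leaving out libraries could not change either sign, and the kept signs are no support. The replicate block changed no call of a subunit that was tested. Counts of 38 to 117 per library limit Sap30.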
